A study of Homo sapiens with 6 samples.

Results

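Small nucleolar RNAs (snoRNAs) and their Cajal body relatives (scaRNAs) were described in T24 cells given vehicle or lipopolysaccharide (LPS) plus nigericin. Members were the genes whose symbol starts with SNORD, SNORA or SCARNA and whose counts summed to at least 60 over the 6 libraries. Members were thus chosen by their summed count. A gene with few counts in 1 group could reach that sum only through the other group, so the rule is not free of the difference between groups. By that rule 33 of 353 listed genes of these families, and of 37871 genes in the table, were members. They comprised 20 of 182 box C/D genes (SNORD), 12 of 147 H/ACA genes (SNORA) and 1 of 24 Cajal body genes (SCARNA). Another 274 genes of the families held 1 to 59 counts and 46 held none. Just inside the minimum were SNORD41 with 60 counts and SNORA71D and SNORD12C with 62 each, and just outside it SNORA5C with 59 and SNORA71B with 55.

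T24 is an established human bladder carcinoma line, labelled epithelial, and both groups are that same line, grown in high-glucose medium with antibiotics. One group was 3 libraries from vehicle cells and the other 3 libraries from cells given LPS, a bacterial cell wall component, together with nigericin, a potassium ionophore used to activate the NLRP3 inflammasome. No group received either agent alone, and the sources used here give no dose or time. The labels do not say whether replicates were separate cultures, so p-values measure only the spread between these libraries, which may be technical.

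Box C/D and H/ACA snoRNAs are short nuclear RNAs that sit in protein complexes and base-pair with other RNAs, chiefly ribosomal RNA. Box C/D RNAs direct 2′-O-methylation through the methyltransferase fibrillarin, and H/ACA RNAs direct pseudouridylation through dyskerin. A few, such as U3 (the SNORD3 genes), U14 (SNORD14) and U17 (SNORA73), are needed for cutting the ribosomal RNA precursor, U14 while also guiding a methylation, and Cajal body RNAs guide modification of spliceosomal RNAs. Most human snoRNAs lie in introns of host genes, often ribosomal protein genes or noncoding snoRNA host genes (SNHG), and are released when the intron is spliced and trimmed. U3 genes are an exception, since they are transcribed from their own promoters.

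The sequences that carry the results are given from the GENCODE 29 annotation of GRCh38, 5′ to 3′ and in DNA letters. In box C/D members, capitals mark TGATGA (the C box core) and the last CTGA (which holds the D box), both read on the RNA's own strand. SNORD3A stands for U3, whose copies made up most member counts after treatment. SNORD36C, SNORD104 and SNORD83A are box C/D members that fell, and SNORD41 had a large rise. The pair of U14 copies shows members of a family with different sequences.
SNORD3A: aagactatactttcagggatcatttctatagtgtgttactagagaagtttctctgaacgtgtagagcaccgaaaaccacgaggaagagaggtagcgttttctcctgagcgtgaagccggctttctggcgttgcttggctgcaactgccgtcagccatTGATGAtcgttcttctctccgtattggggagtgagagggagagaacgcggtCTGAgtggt
SNORD36C: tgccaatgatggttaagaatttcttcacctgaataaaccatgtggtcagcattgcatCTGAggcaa
SNORD104: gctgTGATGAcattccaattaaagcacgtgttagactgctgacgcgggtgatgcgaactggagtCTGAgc
SNORD83A: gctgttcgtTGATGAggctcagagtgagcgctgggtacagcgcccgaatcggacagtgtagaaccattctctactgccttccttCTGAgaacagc
SNORD41: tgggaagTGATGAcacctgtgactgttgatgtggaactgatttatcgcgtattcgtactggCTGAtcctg
SNORD14A: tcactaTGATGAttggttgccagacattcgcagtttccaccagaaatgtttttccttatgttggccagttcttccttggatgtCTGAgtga
SNORD14E: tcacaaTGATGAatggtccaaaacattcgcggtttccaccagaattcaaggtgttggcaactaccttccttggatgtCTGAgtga

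The H/ACA members with called changes are shown next, with capitals for an ACA triplet placed 3 bases from the 3′ end. SNORA73B is the member that fell, and SNORA28, SNORA14B and SNORA71D are those that rose.
SNORA73B: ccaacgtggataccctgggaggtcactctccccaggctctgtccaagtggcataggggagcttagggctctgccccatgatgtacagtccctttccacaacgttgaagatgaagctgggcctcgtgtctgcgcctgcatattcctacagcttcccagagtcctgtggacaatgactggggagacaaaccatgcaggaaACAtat
SNORA28: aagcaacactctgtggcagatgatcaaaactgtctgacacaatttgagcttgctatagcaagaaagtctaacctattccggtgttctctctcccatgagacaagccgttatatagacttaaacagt
SNORA14B: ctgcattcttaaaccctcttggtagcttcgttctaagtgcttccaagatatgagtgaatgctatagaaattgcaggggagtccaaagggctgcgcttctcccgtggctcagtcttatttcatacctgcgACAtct
SNORA71D: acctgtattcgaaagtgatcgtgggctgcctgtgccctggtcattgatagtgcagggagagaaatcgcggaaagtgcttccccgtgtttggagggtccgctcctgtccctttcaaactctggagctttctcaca

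Of the 20 box C/D members, 17 (85.0%) held TGATGA followed by CTGA, against 76.1% of 284 annotated SNORD genes and 1.24% of 5563 annotated snRNA, miRNA and misc_RNA genes, and none of the 12 H/ACA members did. ACA stood 3 bases from the end in 7 of the 12 H/ACA members (58.3%), against 75.7% of 148 annotated SNORA genes and 0.935% of the other small RNA genes. An absent match says only that these letters were not found in the annotated interval. Annotated lengths of the members ran from 66 to 791 bases, with a median of 131. The mature SNORD3A, SNORD3B-1, SNORD3B-2 and SNORD3C transcripts of 217 bases lie inside annotated genes of 699, 758, 791 and 581 bases.

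These RNAs were a very small part of each library. Library totals were 66180407 to 89152224 counts, of which all 33 members together took 713 to 885 in the vehicle libraries and 2104 to 3003 in the treated libraries. Low values of the whole table piled up at multiples of 4, with 6702 entries of 4 against 3337 of 3 and 2279 of 5, and 269 genes, 77 of them snoRNA or scaRNA genes, held exactly 1 in every library. The deposited counts are therefore treated as estimates, and if a sequenced fragment adds about 4, a member at 60 counts rests on about 15 fragments. Keratin genes KRT7, KRT8, KRT18 and KRT19 were high (vehicle means 417 to 3352 CPM, counts scaled to a common library size), EPCAM was low at 1.93 CPM, and the defining markers CDH1 (epithelial), UPK3A (urothelial) and PTPRC (leukocyte) were at 0 in the 3 vehicle libraries. Other markers were detected, with vehicle means of 18.3 CPM for urothelial GATA3, 0.531 for urothelial UPK2, 3.43 for leukocyte CD14, 0.604 for endothelial PECAM1, and 89.7 and 34.1 for mesenchymal VIM and CDH2. In treated libraries KRT18, KRT19, KRT8, KRT7 and GATA3 were called lower (log2 fold changes of -1.71, -1.38, -0.97, -0.72 and -0.71) and CDH2 higher (1.78). Not called were VIM (-0.25), EPCAM (0.59), UPK2 (-1.39), CD14 (-0.16) and PECAM1 (-0.75). Vehicle and treated libraries also differed in composition. Across 13976 protein-coding genes, a library's deviation from the gene mean had a Spearman correlation with GC content of 0.206 to 0.640 in the vehicle libraries and -0.580 to -0.470 in the treated ones, and mitochondrial genes took 6.49% to 7.33% of counts against 12.0% to 12.4%. The part of these shifts in the results below was not tested, beyond a fit with offsets for GC content and length in which 10 members were called higher and 7 lower.

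Of the 33 members, 30 passed edgeR's filter on low counts. Called means an adjusted p below 0.05 in edgeR's quasi-likelihood test with Benjamini-Hochberg adjustment over all 19170 genes tested. In the treated libraries 11 members were higher and 6 lower, and 13 were not called. Over all genes tested 55.3% were called (28.9% higher and 26.4% lower), and over tested genes with 60 to 400 counts 27.6% were (15.0% higher and 12.6% lower). The median log2 fold change (treated over vehicle, here and below) was 0.46 over the tested members and 0.00 over all genes. Leaving out 1 library at a time moved the members' median from 0.080 to 1.05. Only 16 of the 33 members averaged 10 counts or more in both groups, and among these 5 were higher, 2 lower and 9 not called. Another 10 reached that level only in the treated group and 7 only in the vehicle group, so for those 17 a difference was built into the choice. With the counts divided by 4, 7 members passed the filter, of which SNORD3A, SNORD3B-1, SNORD3B-2, SNORD3C and SNORD17 were higher, SNORA73B was lower and SNORA70 was not called. With the same division and the same 19170 genes tested, 13 were higher and 6 lower. Without overlap between the groups' CPM, 15 of the 33 members were higher and 8 lower, beside 35.0% and 32.0% of all genes tested (67.0% in either direction).

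**Figure D1:**
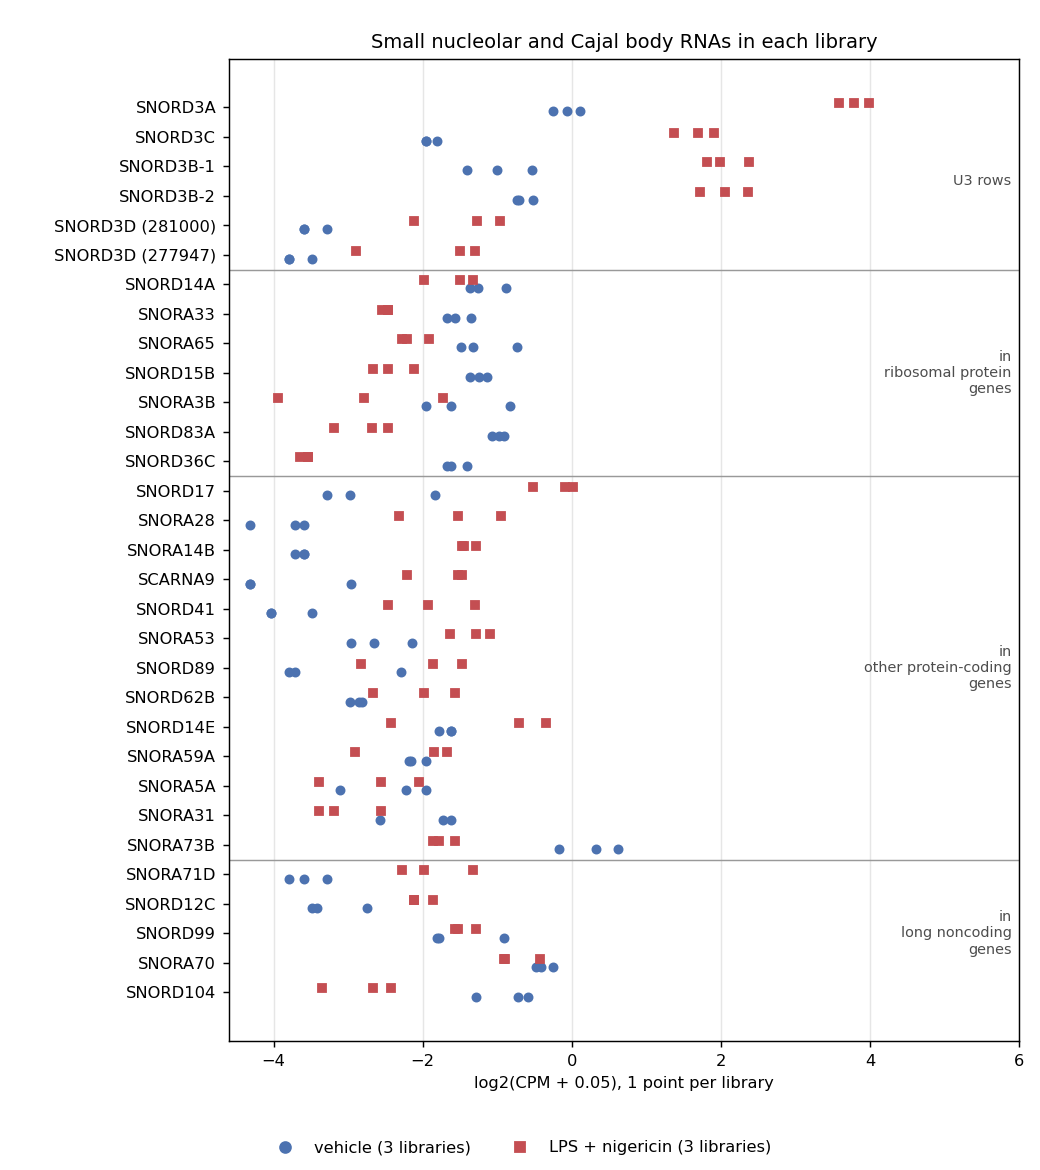
Level of 31 of the 33 members in each library, as log2(CPM + 0.05) on the horizontal axis, with 1 circle per vehicle library and 1 square per treated library. The groups do not overlap in any of the 6 U3 genes, which sit to the right after treatment, whereas among members inside ribosomal protein genes they overlap in SNORD14A and SNORA3B.

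Counts of the U3 genes were higher in every treated library. They cover the annotated intervals, so reads from outside the mature RNA may be included. U3 RNA binds the external spacer of the ribosomal RNA precursor and is required for the cuts that release the small-subunit rRNA. SNORD3A (ENSG00000263934, chr17:19188016-19188714, plus strand, the whole interval annotated as an exon of a snoRNA gene) held 83, 60 and 94 counts in the vehicle libraries and 907, 1323 and 1003 in the treated libraries. The lowest treated library was far above the highest vehicle library. In CPM the level was 0.909 ± 0.122 (SD, n = 3) in vehicle cells and 13.8 ± 1.96 (SD, n = 3) in treated cells, and the log2 fold change was 3.92 (SE 0.21), a 15.2-fold rise with an adjusted p of 2.51e-05 in edgeR's test.

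The other U3 copies moved the same way. SNORD3B-1 (chr17:19061912-19062669, plus strand) went from 41, 49 and 30 counts to 230, 430 and 329, a log2 fold change of 3.14 (SE 0.32). SNORD3B-2 (chr17:19063346-19064136, minus strand) went from 59, 42 and 51 counts to 337, 342 and 273, a log2 fold change of 2.82 (SE 0.25). In SNORD3C (chr17:19189665-19190245, minus strand) the counts were 19, 18 and 19 in vehicle and 210, 308 and 213 in treated libraries, and the log2 fold change was 3.84 (SE 0.27). None of these copies had overlapping groups. SNORD3D is listed under more than 1 identifier for nearly the same interval of chromosome 17, and ENSG00000281000 rose from 3, 4 and 3 counts to 24, 15 and 39 (log2 change 3.05, SE 0.71, edgeR adjusted p 0.0074). The second SNORD3D entry, ENSG00000277947, held 2, 3 and 2 counts against 20, 7 and 30 and did not pass the filter. Both SNORD3D entries averaged 10 counts only in the treated group, so a rise was built into their choice. Both SNORD3D intervals lie within an exon of the noncoding gene AC007952.4, which itself had a log2 fold change of 3.44, so their reads cannot be told apart.

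The U3 copies share nearly all of their sequence. Against the 217 bases of SNORD3A, counted from 1 at the 5′ end, SNORD3B-1 and SNORD3B-2 each differ by A78C, SNORD3C by G108A, and SNORD3D by A4G, C53T and A78C. That leaves 99.5% identity for the first 3 and 98.6% for SNORD3D. The sources used here do not say how reads that match several copies were assigned, so the split of counts between copies is uncertain. A read counted once per copy would enter their sum more than once, which was not tested. The sum also holds both SNORD3D entries, so its level is uncertain too. Summed over the 6 U3 genes, the level was 2.27, 2.31 and 2.18 CPM in the vehicle libraries and 26.1, 29.1 and 22.5 CPM in the treated libraries. The means were 2.25 ± 0.0637 and 25.9 ± 3.31 CPM (SD, n = 3 each), an 11.5-fold difference. U3 took 22.5% to 24.7% of member counts in vehicle and 77.8% to 82.1% in treated libraries. An unnumbered U3 gene that is no member (ENSG00000221044) was called higher too, with 2, 3 and 2 counts against 9, 26 and 28. That gene was listed by the same minimum summed count, which it reached only through the treated group. A rise was thus built into its choice, and its call is no separate evidence for the U3 rise.

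The U1 spliceosomal RNA is another family with near-identical copies. Of its genes, RNU1-1, RNU1-2, RNU1-3 and RNU1-4 held 24 to 56 counts in vehicle and 49 to 106 in treated libraries. Their log2 fold changes of 0.97 to 1.02 were not called, although the groups did not overlap. The entries RNU1-27P, RNU1-28P and RNU1-88P went from 1 to 7 counts to 59 to 126. They were called higher, with log2 fold changes of 4.79, 4.86 and 5.97, beside 3.92 for SNORD3A. These entries reached the same minimum summed count only through the treated group, so a rise was built into their choice. The part of read assignment in the U3 values was not tested.

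**Figure D2:**
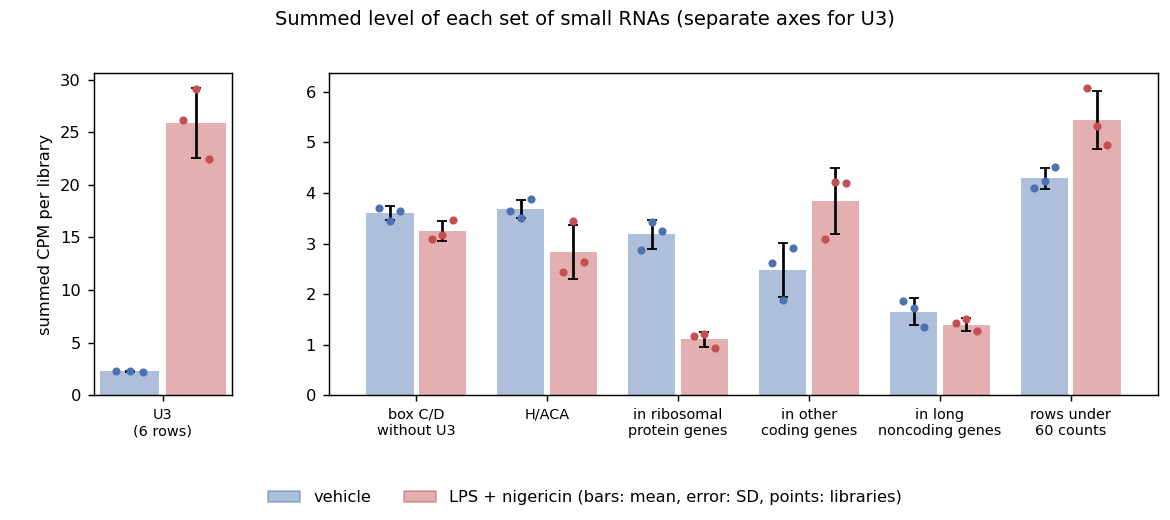
Summed CPM of each set of genes, with bars for the mean of 3 libraries, error bars for the SD and points for single libraries; U3 has its own vertical axis. U3 rises from 2.25 to 25.9 CPM, and members inside ribosomal protein genes fall from 3.18 to 1.10 CPM. For 4 of those 9 members, 10 counts on average were reached only in vehicle, so part of that fall was built into their choice.

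With the U3 genes, 7 of 18 tested box C/D members were higher and 5 lower, with a median log2 fold change of 1.24. Without U3 the median was -0.49, and 2 of 13 were higher and 5 lower, beside 28.9% and 26.4% of all genes tested. Of these called members, only SNORD17 and SNORD15B averaged 10 counts or more in both groups. For the others the direction was built into the choice. The summed level of the box C/D members without U3 was 3.60 ± 0.135 CPM in vehicle and 3.24 ± 0.199 CPM in treated cells (SD, n = 3 each). All the members without U3 summed to 7.31 ± 0.245 and 6.34 ± 0.625 CPM, and the lowest vehicle library (7.04 CPM) and the highest treated library (6.93 CPM) nearly met. Of the members named below, SNORD17, the U14 copies, SNORA73B, SNORA70, SNORA65, SNORA53, SNORA3B and SCARNA9 were named for their level or role, and the others after their values were seen.

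The box C/D members that fell lie inside host genes, and 4 of the 5 are described here. SNORD36C, a guide for methylation of large-subunit rRNA, lies in RPL7A (chr9:133350847-133350912, plus strand). It went from 24, 25 and 25 counts to 2, 3 and 3, a log2 fold change of -3.02 (SE 0.66). The groups did not overlap, and edgeR's test gave an adjusted p of 0.0055. SNORD36C averaged 10 counts only in vehicle, so a fall was built into its choice. Because 63 of its 66 bases lie in an annotated exon of RPL7A, its counts may include host transcript.

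SNORD104 lies in the host gene SNHG25 (chr17:64146083-64146152, plus strand). It held 51, 47 and 33 counts against 9, 9 and 4, a log2 fold change of -2.39 (SE 0.57). SNORD83A, in RPL3 (chr22:39315213-39315307, minus strand), held 44, 35 and 39 counts against 7, 11 and 5, a log2 fold change of -2.19 (SE 0.53). The groups did not overlap in either, but both averaged 10 counts only in vehicle, so a fall was built into their choice. SNORD15B, in RPS3 (chr11:75404421-75404566, plus strand), was near the threshold, with 31, 31 and 34 counts against 12, 9 and 11. Its log2 change was -1.41 (SE 0.50, edgeR adjusted p 0.0434), and leaving out any library, of either group, gave adjusted p values of 0.0606 to 0.114.

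Among box C/D members outside U3, SNORD17 and SNORD41 were called higher. SNORD17, a long box C/D RNA in SNX5 (chr20:17962710-17962946, minus strand), held 21, 4 and 7 counts in vehicle and 59, 54 and 81 in treated libraries, a log2 change of 2.77 (SE 0.59, edgeR adjusted p 0.0052). Vehicle replicate 1 was well above the other vehicle libraries but below every treated library. SNORD41, in TNPO2 (chr19:12706449-12706518, minus strand), held 1, 3 and 1 counts against 14, 11 and 30, a log2 change of 3.47 (SE 0.89, edgeR adjusted p 0.0116). It lost its call without vehicle replicate 1 (adjusted p 0.0524) or without treated replicate 3 (adjusted p 0.0639). SNORD41 averaged 10 counts only in the treated group, so a rise was built into its choice.

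The box C/D members named next were not called. The U14 copies, which act in small-subunit rRNA processing, had log2 changes of opposite sign, whose difference was not tested. SNORD14A in RPS13 held 31, 28 and 45 counts against 20, 29 and 17 (log2 fold change -0.49, SE 0.45), and SNORD14E in HSPA8 held 22, 21 and 25 against 9, 47 and 62 (0.87, SE 0.62). Treated replicate 1 was the lowest and the others the highest for SNORD14E, so its groups overlapped. The sequences of these copies matched at 71 of 92 aligned positions (77.2%). SNORD99, SNORD12C and SNORD89 had log2 fold changes of -0.02, 1.66 and 1.61, each with an SE between 0.49 and 0.94. SNORD62B, which did not pass the filter, held 7, 7 and 8 counts against 19, 17 and 9. Other box C/D RNAs with roles in processing were below the minimum: SNORD118 (U8) held 6 counts in all, SNORD22 held 6, and SNORD14B, SNORD14C and SNORD14D held 6 or 7 each.

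Of 11 H/ACA members tested, 3 were higher, 1 lower and 7 not called. Over all genes tested 28.9% were higher and 26.4% lower, and over those with 60 to 400 counts 15.0% and 12.6%. The 3 higher members averaged 10 counts only in the treated group, so a rise was built into their choice. The median log2 fold change of the H/ACA members was -0.29. Without 1 library that median lay between -0.69 and 0.0052, and over the members with 10 counts or more in both groups it was -1.16, with 0 called higher. Their summed level was 3.68 ± 0.181 CPM in vehicle and 2.84 ± 0.531 CPM in treated cells (SD, n = 3 each), and the highest treated library (3.44 CPM) was close to the lowest vehicle library (3.51 CPM). SNORA73B, a copy of the U17 RNA that acts in small-subunit rRNA processing, was the H/ACA member with the most counts (ENSG00000200087, chr1:28508559-28508762, plus strand). It held 110, 64 and 135 counts in vehicle and 16, 24 and 19 in treated libraries. Every treated library was below every vehicle library, and the level fell from 1.18 ± 0.322 to 0.252 ± 0.0319 CPM (SD, n = 3 each). The log2 fold change was -2.22 (SE 0.35), a 4.64-fold decrease with an edgeR adjusted p of 0.0014. Its paralogue SNORA73A held 7 counts in all.

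The H/ACA members that rose started from very few counts, and each guides pseudouridylation of small-subunit rRNA. SNORA28, in EIF5 (chr14:103337849-103337974, plus strand), held 3, 2 and 0 counts against 10, 39 and 25, a log2 change of 3.88 (SE 0.99, edgeR adjusted p 0.0114). Without treated replicate 2 its adjusted p was 0.0544. SNORA14B, in TOMM20 (chr1:235127803-235127937, minus strand), held 3, 2 and 3 counts against 21, 30 and 26, a log2 change of 3.35 (SE 0.65, edgeR adjusted p 0.0033). Replicates agreed closely in both groups. SNORA71D, in SNHG17 (chr20:38433865-38433998, minus strand), held 2, 4 and 3 counts against 23, 13 and 17, a log2 change of 2.68 (SE 0.76, edgeR adjusted p 0.0182). Leaving out vehicle replicate 1 or 3 or treated replicate 1 or 3 ended that call, with adjusted p values of 0.0512 to 0.0897.

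Several of the more abundant H/ACA members did not pass the threshold. SNORA70 is here the gene at chr12:75689152-75689304 (minus strand), in the noncoding gene AC078923.1. It held 64, 60 and 61 counts against 32, 58 and 41 (log2 fold change -0.37, SE 0.33). SNORA65, a guide for large-subunit rRNA, held 32, 42 and 28 against 11, 13 and 18 (-1.16, SE 0.49, edgeR adjusted p 0.0778), with no overlap between groups. SNORA53 held 10, 6 and 16 against 18, 30 and 35 (1.51, SE 0.56, edgeR adjusted p 0.0508), also without overlap. DESeq2 and limma-voom called it higher, with adjusted p values of 0.0420 and 0.0453. SNORA3B was the most scattered of these, with 25, 39 and 19 counts against 1, 21 and 8, and SNORA33 held 24, 22 and 31 against 8, 11 and 11. SNORA59A and SNORA5A had log2 fold changes of 0.04 and -0.29, and SNORA31, which did not pass the filter, held 25, 9 and 23 counts against 3, 10 and 5.

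SCARNA9 was the only Cajal body RNA with 60 counts (chr11:93721513-93721865, plus strand, in CEP295), and it guides modification of the U2 spliceosomal RNA. It held 0, 6 and 0 counts in vehicle and 11, 26 and 25 in treated libraries, a log2 change of 3.32 (SE 1.23, edgeR adjusted p 0.0492). A rise was built into its choice, because SCARNA9 averaged 10 counts only in the treated group. Since 2 vehicle libraries were at 0, the size of the fitted change depends on vehicle replicate 2. Without it every vehicle library was at 0 and the fitted log2 change was 7.44, a value set by the prior count, and without vehicle replicate 1, vehicle replicate 3 or any treated library it was not called (adjusted p 0.0934 to 0.131). The other 23 SCARNA genes summed to 0.254 ± 0.0366 CPM in vehicle and 0.402 ± 0.0476 CPM in treated cells (SD, n = 3 each), and SCARNA2 held 4 counts in all.

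Members were next set beside the genes they lie in. A host was taken as the gene, not itself a small RNA, whose span contains the member on the same strand, and 29 of 33 members had one. On either strand, 8 of the 33 members overlap an annotated exon of another gene, so their counts may include its transcript. Setting aside SNORD3D and the hosts of members that were not tested, 25 pairs had values for both. In 21 pairs the member and its host had log2 fold changes of the same sign and in 4 of opposite signs, and in 21 the member had the larger log2 fold change in size. Member values carried larger errors than host values, with SEs of 0.33 to 1.23 against 0.11 to 0.48. Only 8 pairs were called in the same direction and 1 in opposite directions, while in 9 the host was called and the member was not, and in 3 the member was called and the host was not. Among the 8, only SNORD17 and SNORD15B averaged 10 counts or more in both groups. For the others a difference was built into the choice of the member, and the 21 of the same sign include such members too. Over all genes tested 55.3% were called.

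**Figure D3:**
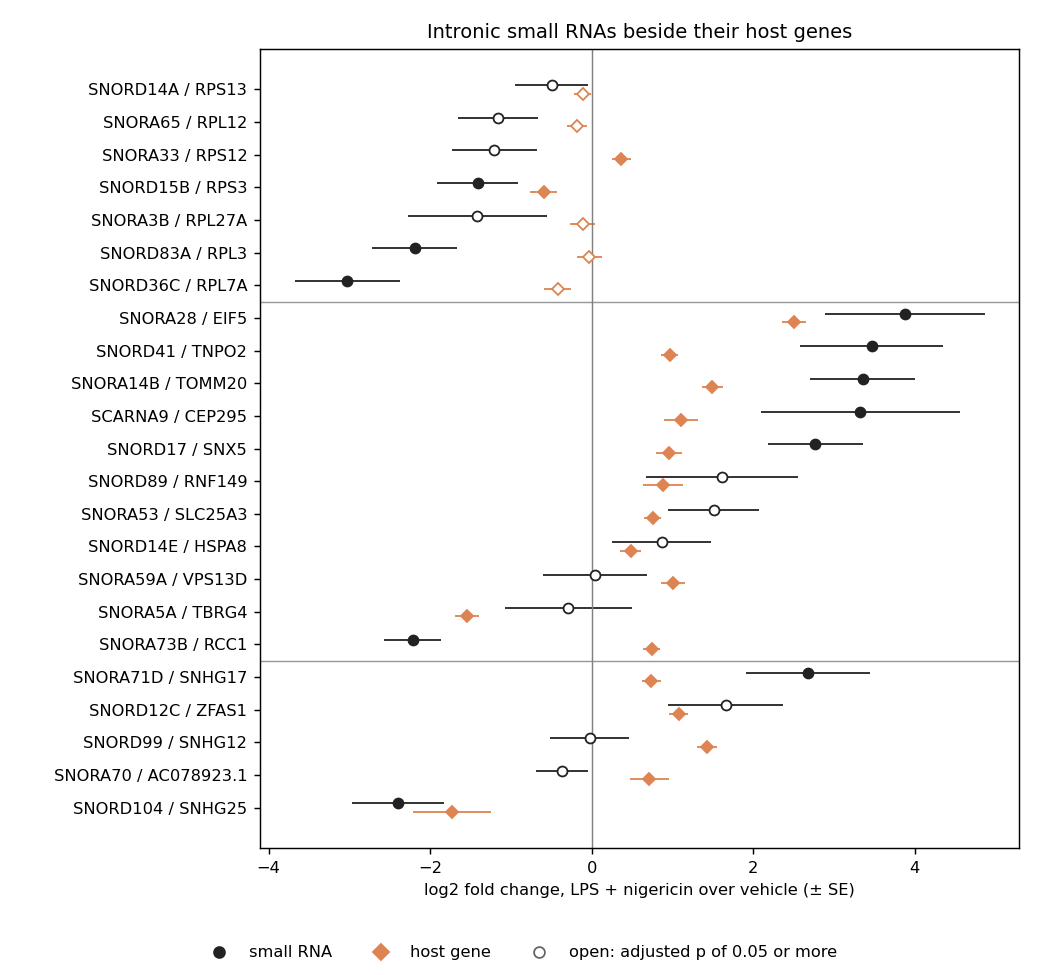
Log2 fold change ± SE of 23 of the 25 tested members outside U3 that have a host (circles) and of their host genes (diamonds). Open symbols mark an adjusted p of 0.05 or more. Not all are intronic, since SNORD36C lies mostly in an exon of RPL7A. All the members shown in ribosomal protein genes lie left of 0 while their hosts lie between -0.60 and 0.37, and in the other sets both lie on either side.

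The 9 members inside ribosomal protein genes all had negative log2 fold changes, with a median of -1.42. This grouping was made after the values were seen. Of these 4 were called lower, none higher and 5 not called, against the 26.4% of all genes tested that were called lower. For 4 of the 9, 3 of the called ones among them, 10 counts on average were reached only in vehicle, so a fall was built into their choice, and nothing is read from the shared sign or the count. Of the 5 with 10 counts in both groups, SNORD15B was called lower and 4 were not called, and their summed level was 1.57, 2.12 and 1.72 CPM in vehicle and 0.786, 0.995 and 0.774 CPM in treated libraries. The hosts of all 9 had log2 fold changes of -0.60 (RPS3) to 0.37 (RPS12) with a median of -0.18, and counted once per member 1 host was called higher, 1 lower and 7 not called. Summed over the 9 members, the level was 2.87, 3.42 and 3.26 CPM in vehicle and 1.16, 1.21 and 0.940 CPM in treated libraries, which is 2.88-fold lower. That sum includes the 4 members for which a fall was built in. Of the 9, 2 overlap annotated exons of their hosts, SNORD36C among them.

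Among the 11 tested members inside other protein-coding genes, 5 were higher and 1 lower, with a median log2 fold change of 1.61, against 28.9% and 26.4% of all genes tested. Of the 5 higher, SNORA14B, SNORA28, SCARNA9 and SNORD41 had 10 counts on average only in the treated group, so that a rise was built into their choice. Of the hosts of all 13 members in such genes, 12 were called higher and 1 lower. EIF5, the host of SNORA28 and a translation initiation factor gene, rose from 125 ± 17.8 to 711 ± 59.8 CPM (SD, n = 3 each), a log2 fold change of 2.50. TOMM20, the host of SNORA14B, had 1.50, CEP295 had 1.11, TNPO2 had 0.97 and SNX5 had 0.95. SNORA5A had a log2 fold change of -0.29 inside TBRG4, which fell with -1.54. Values of the summed level of these 13 members were 2.62, 1.89 and 2.92 CPM in vehicle and 3.08, 4.22 and 4.20 CPM in treated libraries, so that the groups did not overlap.

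SNORA73B lies within both RCC1 and the noncoding host gene SNHG3, and these moved in opposite directions. RCC1, with the higher mean level and therefore taken as its host above, had a log2 fold change of 0.74 (SE 0.11), and SNHG3 fell from 112 ± 5.43 to 40.7 ± 4.86 CPM (SD, n = 3 each), a log2 change of -1.47 (SE 0.12, edgeR adjusted p 1.16e-04). With SNHG3 as the host, the pair would count as falling together. In noncoding hosts, SNORD104 and SNHG25 were both called lower (-2.39 and -1.73), and SNORA71D and SNHG17 both higher (2.68 and 0.74). SNORD104 averaged 10 counts only in vehicle and SNORA71D only in the treated group, so their directions were built into the choice. SNHG12 rose with a log2 fold change of 1.43 while SNORD99 inside it had -0.02, and ZFAS1 rose with 1.08 beside 1.66 for SNORD12C, which was not called. AC078923.1 was called higher with 0.71, while SNORA70 inside it had -0.37 and was not called.

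Levels can be compared between members only per length, here as CPM per kilobase of annotated gene. Among the members described, the highest in vehicle cells were SNORD104 at 7.32 ± 1.90, SNORA73B at 5.76 ± 1.58, SNORD83A at 4.80 ± 0.286 and SNORA70 at 4.70 ± 0.398 CPM per kilobase (SD, n = 3 each). Neighbours in that vehicle order did not differ beyond their spread. In treated cells SNORD3A led at 19.8 ± 2.81 CPM per kilobase, followed by SNORD14E at 5.64 ± 3.64, SNORD3B-1 at 5.52 ± 1.15, SNORD3C at 5.39 ± 0.996 and SNORD3B-2 at 5.24 ± 1.17. The U3 values are per base of the long annotated intervals, not of the mature RNA, so their place in the order is uncertain.

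The 320 genes of these families below the minimum summed to 4.29 ± 0.211 CPM in vehicle and 5.45 ± 0.572 CPM in treated cells (SD, n = 3 each), a ratio of 1.27. Of these genes 77 held exactly 1 in every library, so part of each sum varies only with the library size. Among other small RNAs (spliceosomal, signal recognition particle, Y, vault and 7SK RNAs, the RNAs of RNases MRP and P, telomerase RNA, microRNA genes, and unnumbered U3 and U8 copies), 94 genes had 60 counts or more and 90 were tested, of which 12 were higher and 23 lower, with a median log2 fold change of -0.43. Genes with microRNA symbols made up 62 of these, with 6 higher and 22 lower. They include microRNA host genes such as MIR17HG, MIR23AHG and MIR222HG, each called lower, whose transcripts are not small RNAs. Neither these counts nor the 12 higher and 23 lower are therefore of small RNAs alone. Some of the 94 genes reached 60 counts only through a single group, so for these a direction was built into the choice. Over the 192 tested genes outside the membership whose longest transcript has 300 bases or fewer, 46 were higher and 37 lower, with a median of -0.16. RMRP and RPPH1, the RNAs of RNases MRP and P that are likewise transcribed from their own promoters, had log2 fold changes of -0.89 and 0.46 and were not called.

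Genes for the proteins that bind and process these RNAs changed in both directions. Of 31 on the list, all tested, 15 were higher, 7 lower and 9 not called, with a median log2 fold change of 0.49, beside 28.9% higher and 26.4% lower over all genes tested. With library totals in place of composition factors the counts were 10 higher and 11 lower, and with offsets for GC content and length 9 and 7. In the box C/D core, NOP58 rose from 30.4 ± 10.5 to 115 ± 9.04 CPM (SD, n = 3 each; log2 fold change 1.92, SE 0.25) and NOP56 had 0.63, whereas the methyltransferase gene FBL had -0.55 and SNU13, whose protein binds the box C/D fold itself, had -0.83, all called. In the H/ACA core, the pseudouridine synthase gene DKC1 rose with 0.96 and GAR1 with 0.71, NOP10 fell with -0.85, and NHP2 had -0.37 and was not called.

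Outside the cores, NOLC1, a nucleolar and Cajal body phosphoprotein that binds both classes of complex, rose from 62.4 ± 3.87 to 223 ± 12.5 CPM (SD, n = 3 each), a log2 fold change of 1.84. The assembly factor gene NOPCHAP1 fell with -1.23, and RRP9, which encodes the U3-specific protein, had -0.50 (SE 0.19, edgeR adjusted p 0.0585). Of 6 genes for processing and turnover, 5 were called higher, among them XRN2, a nuclear 5′-to-3′ exonuclease, with 1.23, and none was called lower, beside the same 28.9% and 26.4%. WRAP53, which takes scaRNAs to Cajal bodies, fell with -1.06. SMN1 had 1.31, but its sequence is nearly that of SMN2 and their reads may be shared.

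**Figure D4:**
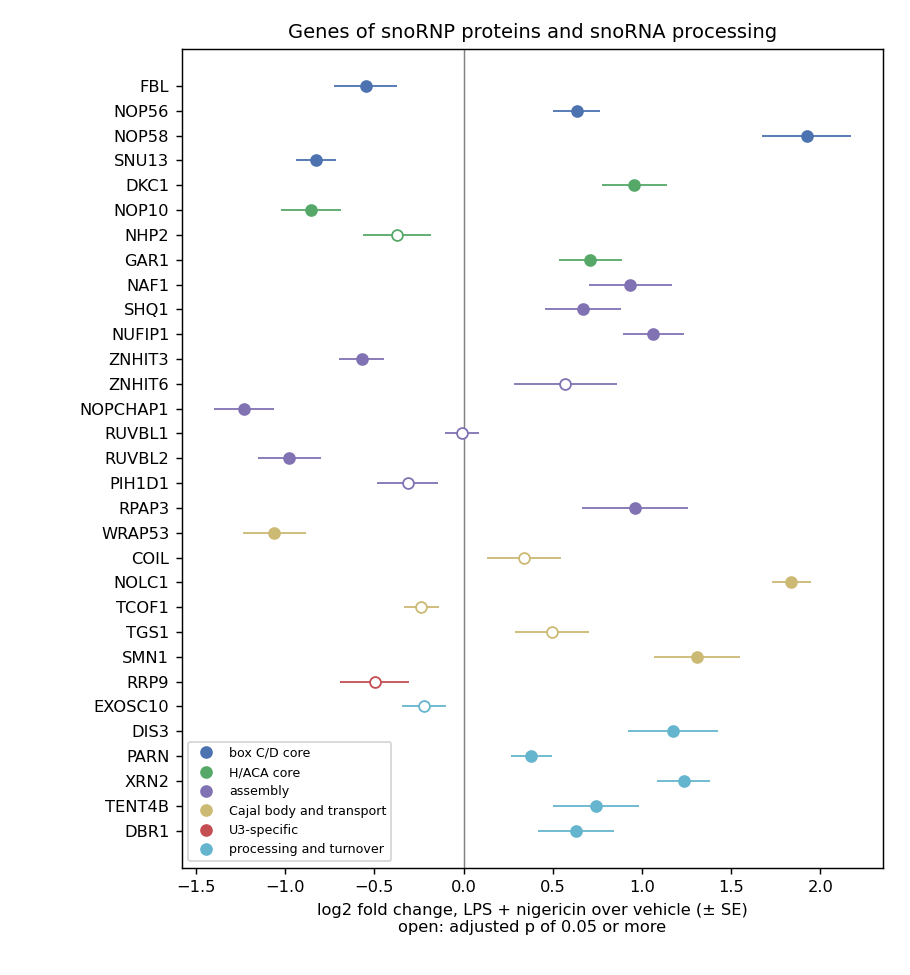
Log2 fold change ± SE of each of the 31 genes for snoRNA-binding and processing proteins, coloured by role, with open symbols for an adjusted p of 0.05 or more. NOP58 and NOLC1 lie farthest to the right at 1.92 and 1.84, NOPCHAP1 farthest to the left at -1.23, and both core sets have members on each side of 0.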

How the data were processed

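RNA was sequenced from 3 vehicle and 3 LPS plus nigericin samples of T24 cells. The authors deposited 1 table of whole numbers for Ensembl genes, headed as counts per the file headers and read here as estimated counts because low values pile up at multiples of 4. The test planned for plain counts was kept. Each column was matched to a sample by its library name. The build is hg38 per the submitters' processing notes. Not given in the sources used here are the aligner, the counter, its annotation, its strand setting, its treatment of reads with several matches and the selection or size range of the RNA. Of 37871 identifiers, 37840 had a symbol.

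Genes were filtered with filterByExpr, scaled with TMM factors and tested with edgeR 4.0.16 in R 4.3.3 (robust quasi-likelihood fit, group as the only term, Benjamini-Hochberg adjustment over 19170 genes, threshold 0.05). CPM use TMM-scaled library sizes. An SE is the size of the log2 change over the root of its F value. The common biological coefficient of variation was 0.268, and no exact permutation of 3 against 3 libraries can reach a two-sided p below 0.1. Intervals, exons, hosts and sequences came from GENCODE 29 on GRCh38.

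Members and lists were chosen with earlier results of these data known. Members named by rule were the 5 with the highest mean CPM in each class, the 3 largest called rises and falls per class at 1 CPM or more in the higher group, the genes of U3, U8, U14 and U17 with SNORD22 and SCARNA2, those next to the 60-count minimum, the 5 hosts with the most members, and of the protein genes the cores and the 3 others with the smallest p. Of the members, 2 are counted but not reported singly here. Other genes named were chosen after their values were seen, and not every gene the rule covers is reported here. Deviations from the group mean had correlations of -0.0236 to 0.0956 between same-numbered samples and -0.101 to 0.122 between the others. Pairing by replicate number was thus not seen, but 3 libraries per group cannot exclude it.

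Alternatives were RLE factors, library totals, DESeq2 1.42.0, limma-voom 3.58.1, no filter, 1 CPM in 3 libraries, a replicate block, offsets from loess fits of GC content and length (span 0.3), other member minimums (30 and 120 counts), members without exon overlap, and leaving out each library. Summing U3, members with 10 counts in both groups, and counts divided by 4 were added after seeing the data. The test was checked on simulated counts. Python 3.11.15 drew the figures.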

Additional observations from a re-analysis of the deposited data

How the results depend on the processing

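Of the 17 called members, 12 kept their call and sign in each of the 17 refits that tested them, and SNORD15B, SCARNA9, SNORA71D, SNORD41 and SNORA28 lost it in 1 or more while keeping their sign. Another 4 gained a call: SNORA53 with DESeq2, limma-voom and counts divided by 4 (same genes tested), SNORA33 with offsets for GC content and length, SNORD89 without vehicle replicate 3, and SNORD12C with that division. Leaving out 1 library at a time gave 8 to 12 members higher and 5 to 6 lower with a median log2 fold change of 0.080 to 1.05, 6 to 8 and 4 to 5 box C/D members with a median of 1.15 to 1.50, 2 to 3 and 1 H/ACA members with a median of -0.69 to 0.0052, and 10 to 18 snoRNP protein genes higher and 6 to 11 lower. With library totals 11 protein genes were lower. With offsets for GC content and length the box C/D median was 0.82, 2 H/ACA members were lower and 9 protein genes were higher. Without a filter the median over members was 0.86, where the median of all genes was 0.10. At 1 CPM in 3 libraries 4 members were tested, all U3: 4 were higher and 0 lower, with a median of 3.47 (no H/ACA value). With U3 summed, 7 members and 3 box C/D members were higher, with medians of -0.16 and -0.26. With counts divided by 4, 5 members were higher and 1 lower (median 2.80), 0 box C/D members were lower (median 3.15) and 0 H/ACA members were higher (median -1.29).

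From a minimum of 30 counts the median was 0.045. From 120 counts 5 members were higher (median -0.20), 3 box C/D members were lower (median 0.87) and 0 H/ACA members were higher (median -1.16). Without exon overlap 3 box C/D members were lower and the median over members was 0.010. With 10 counts in both groups 5 members were higher and 2 lower (median 0.010), 1 box C/D member was lower (median 2.77) and 0 H/ACA members were higher (median -1.16). The last 3 sets hold fewer members. With the replicate block 9 members were higher and 5 lower, though no pairing by replicate number was seen. Changes near 0 turned sign: SNORD99 was 0.043 with limma-voom, 0.052 with the block, 0.0085 with counts divided by 4 and the same genes tested, and -0.20 to 0.39 over fits without 1 library. SNORA59A was -0.019 with library totals, -0.13 with limma-voom, -0.072 with the block, and -0.27 to 0.40 without 1 library. SNORA5A was -0.81 to 0.080 without 1 library. The cause of these shifts was not tested. Low counts limit most members outside U3.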
